A study of Mus musculus with 16 samples.

Results

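m6A enrichment at room temperature is described here as the ratio, gene by gene, of the RNA pulled down by an anti-N6-methyladenosine antibody to the total RNA it came from, in adipose tissue of wild-type (WT) mice. The 2 m6A libraries and the 2 input libraries were paired by replicate number, and genes with at least 1 RPKM (reads scaled to transcript length and to library size) in both inputs were taken, which gave 12176 of the 17883 genes in the matrix. The ratio is the difference of log2(RPKM + 1) between capture and input, called log2 enrichment below. A value of 0 means an equal share of the reads in both kinds of library, and 1 means a doubled RPKM + 1. A gene is called enriched or depleted where the limma adjusted p of that difference was under 0.05. That fit compares group means and holds no term for the pairs. A fit with replicate pairs as a block is given as an alternative. The mice were C57BL/6, 8 weeks old and untreated, of genotype METTL3 flox/flox, and the antibody was the anti-m6A of Synaptic Systems. METTL3 is the catalytic subunit of the m6A writer, and no Cre is named for these mice, so WT here means floxed without Cre. The series also holds METTL3 flox/flox mice kept singly at 4 °C for 7 days, with or without Adipoq-Cre, a Cre driven in adipocytes. Their 8 input and m6A libraries entered the same fit and its estimate of the spread, and the WT cold ones are set beside room temperature at the end. Whether the 2 replicates of a group came from different mice is not stated, and every p-value below speaks of library-to-library spread alone.

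N6-methyladenosine is the most common internal modification of mRNA. A nuclear complex of METTL3, METTL14 and WTAP with accessory proteins writes it, mainly near stop codons and in long exons, FTO and ALKBH5 can remove it, and proteins with a YTH domain read it and shorten the life of many marked mRNAs. Transcripts of regulators and of rapidly turned over mRNAs are known to carry many sites, while mRNAs of ribosomal proteins and of other constantly needed proteins are known to carry few. In fat, the writer and its erasers are known for effects on adipocyte formation and on the browning of white fat.

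Recovered reads numbered 7746687 and 7402138 in the inputs and 5724101 and 4883336 in the m6A libraries. At 1 RPKM a transcript of the median length, 2977 bases, holds 23.1 reads in input replicate 1. The tissue label was borne out by the inputs, where Adipoq stood at 566 and 523 RPKM and Plin1 at 336 and 347. Other cells were present too. The 17 skeletal muscle markers summed to 407 RPKM in input replicate 1 and 52.0 in input replicate 2, and to 418 and 49.2 in the captures, so muscle RNA marks replicate 1 in both kinds of library. The 16 T and B cell markers summed to 1028 and 958 RPKM in the inputs, led by Cd79a of B cells at 229.5 and 221, and of the 11 epithelial markers measured, which summed to 2.15 and 2.10 RPKM, Krt5 and Krt14 were at 0. In bulk tissue a ratio pools the transcripts of all these cells, and fewer cells of a type and less RNA per cell cannot be told apart.

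Capture changed the makeup of the RNA over most of its range. Of the 12176 genes, 1946 (16.0%) were enriched and 4496 (36.9%) depleted by limma, beside 16.0% and 34.6% of all 13062 genes tested. The other 5734 were not called. Log2 enrichment ran from -3.92 to 2.84, with a median of -0.30 and quartiles of -0.87 and 0.31, against a median standard error of 0.21. It reached 1 or more in 807 genes and -1 or less in 2488. Depletion was therefore both the more common and the larger change on this scale.

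Where 0 lies depends on the scaling. RPKM is a share of all reads, and 1 gene, Lars2, took 15.2% and 15.4% of the reads in the captures against 2.28% and 3.02% in the inputs. With libraries scaled by their median ratio the median gene moved to -0.01, and the calls were nearly even at 2968 enriched and 2977 depleted, beside 24.1% and 23.0% of all genes tested that way. All 1946 enriched genes were enriched under both scalings and 0 genes changed from depleted to enriched, so that zero point moves the edge between called and not called. With replicate pairs as a block, 2590 genes were enriched and 5257 depleted, beside 21.3% and 40.6% of all genes tested. Without input replicate 2 the enriched count was 1259, and the depleted count was 3461.

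**Figure D1:**
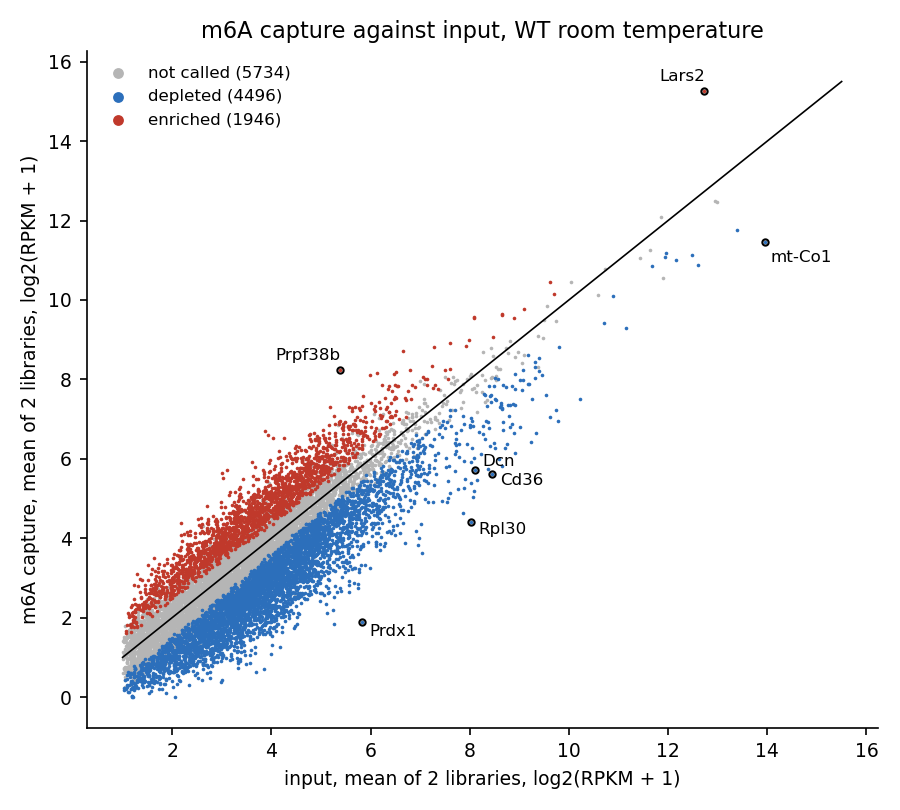
Mean log2(RPKM + 1) of the 2 input libraries (horizontal) and of the 2 m6A libraries (vertical), 1 point a gene for the 12176 genes, red where enriched (1946), blue where depleted (4496) and grey where not called (5734). The line marks equal values; Lars2 stands alone at the top right above it and mt-Co1 below it.

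The 2 replicates ranked the genes alike. Both pairs lay above 0 in 4026 genes and both below 0 in 7107, and in 1043 the signs differed. Across genes, which are not independent replicates, the log2 ratios of the pairs had Pearson's r of 0.947, and their difference had a standard deviation of 0.28. It was over 1 in 67 genes. Among genes of at least 10 RPKM the pairs differed most in H4c1, a replication-dependent histone H4 gene, with log2 ratios of 0.23 and -1.28, from input values of 16.8 and 18.0 RPKM and captures of 19.8 and 6.84. Tmem256, Naa38, Sarnp and Pole4 followed. Naa38, a subunit of an N-terminal acetyltransferase, changed sign between pairs (-0.91 and 0.36).

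**Figure D2:**
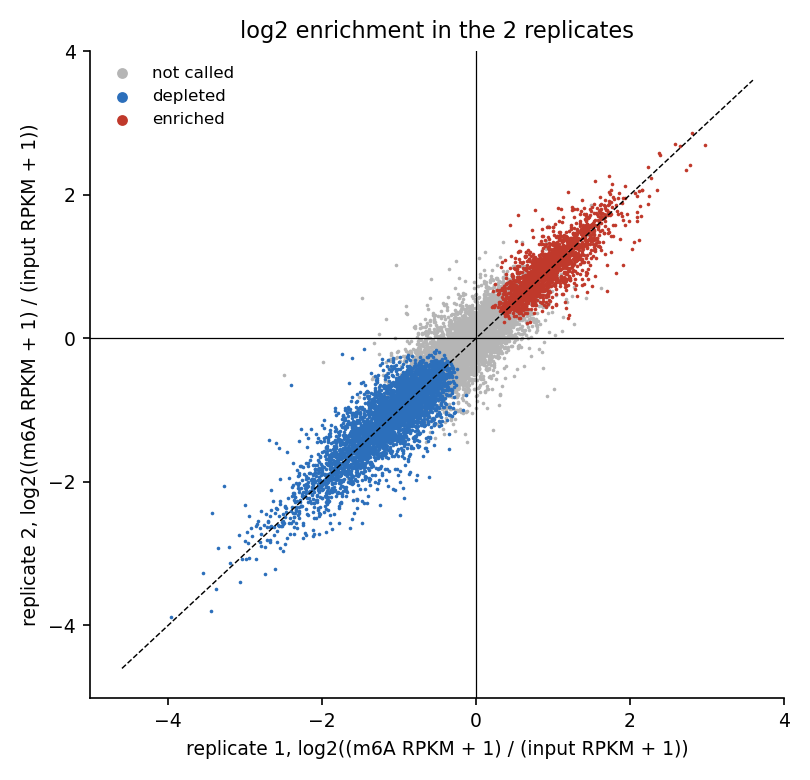
Log2 ratio of m6A to input in replicate 1 (horizontal) and replicate 2 (vertical), 1 point a gene, coloured by call as enriched, depleted or not called, with the dashed line at equality. Genes called enriched lie at the upper right along the line and genes called depleted at the lower left; signs differ in 1043 genes.

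The highest enrichment belonged to a splicing factor. Prpf38b, which acts in the spliceosome (chr3:108902805-108911729 in mm10), stood at 42.5 and 39.4 RPKM in the inputs and 343 and 260.2 in the captures. Both captures were far above both inputs, a log2 enrichment of 2.84 ± 0.18 (standard error, limma adjusted p = 3.84e-06). Basp1, a membrane-associated signalling protein, went from 12.3 and 15.0 RPKM to 92.1 and 116, also a log2 enrichment of 2.84.

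Also near the top were Gpatch4 (2.65), a nucleolar G-patch protein, and Hmgn5 (2.60), a nucleosome-binding protein. Lars2, named for mitochondrial leucyl-tRNA synthetase, was enriched by 2.54 ± 0.26, from 5845 and 7756 RPKM to 38923 and 39559. That makes it by far the most abundant name in the captures, but the matrix does not show whether reads of other RNA were counted under it, so what this value measures is uncertain. Tnfaip8l2, a brake on innate immune signalling, Nsrp1, a nuclear speckle splicing regulator, Tcf15, a transcription factor, and Sec62, part of the channel for protein entry into the endoplasmic reticulum, had log2 values of 2.48, 2.47, 2.31 and 2.26. Traf3ip1, a ciliary transport protein, and Gadd45g, a stress response protein, had 2.21 and 2.12.

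At the opposite end stood genes of redox defence, translation and respiration. Prdx1, a peroxiredoxin that removes hydrogen peroxide, stood at 54.9 and 56.0 RPKM in the inputs and only 2.59 and 2.86 in the captures. Its log2 enrichment of -3.92 ± 0.16 (limma adjusted p = 1.39e-06) was the lowest of all 12176 genes, and its captures rest on 34 and 32 reads. Rpl30, a protein of the large ribosomal subunit, fell from 259 and 258 RPKM to 22.9 and 17.6 (-3.62 ± 0.30). Cox6c, a subunit of cytochrome c oxidase, followed at -3.40 and Rps21, of the small ribosomal subunit, at -3.23.

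H4c8, another histone H4 gene, had a log2 value of -3.14, Eif3m, a translation initiation factor subunit, -3.06, and Rps27a, which encodes ubiquitin fused to a ribosomal protein, -3.03. Snrpe of the spliceosomal Sm core and Ssr3 of the translocon were both at -3.01. The other 3 of the 12 lowest carry the names of chemoreceptor genes, Olfr774, Olfr839-ps1 and Vmn2r53. Of 56 genes with Olfr or Vmn names, 46 have a transcript length in the matrix that is longer than the whole gene in RefSeq, so what those rows measure is uncertain. For Olfr774 the length was 1429 bases against a gene span of 939.

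**Figure D3:**
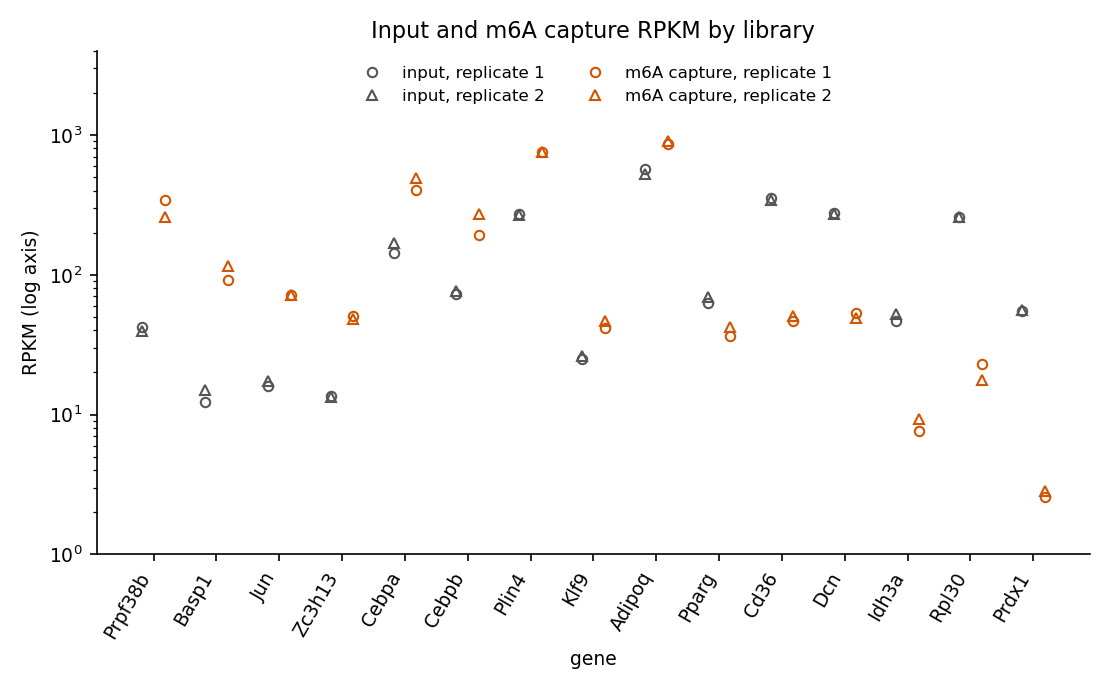
RPKM (log axis) of 15 genes in the 2 input libraries (grey) and the 2 m6A libraries (orange), with circles for replicate 1 and triangles for replicate 2. Captures lie above inputs from Prpf38b to Adipoq and below them from Pparg to Prdx1, and in each of these genes the replicates lie closer to each other than to the other kind of library.

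The mRNAs of the m6A machinery were themselves unequally captured. Of 23 writers, erasers and readers, 9 were enriched and 8 depleted, beside 16.0% and 36.9% of all 12176 genes. Their median of -0.03 became 0.28 with median-ratio scaling, where 9 were enriched and 4 depleted. The accessory writer subunits led. Zc3h13, which anchors the complex in the nucleus, rose from 13.6 and 13.4 RPKM to 50.8 and 48.1 (log2 1.80 ± 0.16, limma adjusted p = 1.71e-05). Rbm15 and Rbm15b, which guide the complex to target RNA, followed at 1.76 and 1.61, and the subunit Cbll1 at 0.68.

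The catalytic core was not enriched. Mettl14, which positions the RNA for METTL3, was depleted from 8.43 and 7.59 RPKM to 4.08 and 3.66 (-0.89 ± 0.21, limma adjusted p = 0.00498). Mettl3 had input values of 10.8 and 9.27 RPKM and capture values of 7.16 and 7.28, with a limma adjusted p of 0.323, or 0.041 with replicate pairs as a block. For Wtap the log2 value was -0.03 ± 0.17, not called. Both erasers were depleted on the RPKM scale, Fto by -0.58 and Alkbh5 by -0.38, but with median-ratio scaling neither was called (limma adjusted p = 0.238 and 0.695).

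Readers were called on both sides. The cytoplasmic readers Ythdf1 (1.18), Ythdf2 (0.87) and Ythdf3 (0.81), the nuclear reader Ythdc1 (1.06) and Prrc2a (0.91) were all enriched. Ythdf2, which speeds the decay of marked mRNA, had 13.9 and 14.4 RPKM in the inputs and 26.8 in both captures. Ythdc2, a helicase with a YTH domain, was depleted by -1.37, and so were Hnrnpc (-0.98) and Hnrnpa2b1 (-0.60), RNA-binding proteins proposed as indirect readers. With median-ratio scaling Hnrnpa2b1 was not called (-0.27, limma adjusted p = 0.0754).

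Zinc finger, immediate early, SOCS, chromatin and KLF genes were the lists with the highest medians. Of all 12176 genes, 16.0% were enriched and 36.9% depleted. Of 22 genes listed as C2H2 and BTB zinc finger repressors, 18 were enriched and 1 depleted, with a median of 1.05, or 1.37 with median-ratio scaling. The list also counts Zfp36l2 (1.01, enriched), which is neither of these kinds. Hic1, a growth-suppressing repressor, rose from 9.30 and 9.04 RPKM to 37.5 and 36.2 (1.89 ± 0.32, limma adjusted p = 0.000773). Zfp646 reached 1.69 and Zbtb7b, a regulator of T cell fate, 1.57. The exception was Zbtb20, depleted from 31.2 and 27.0 RPKM to 14.7 and 12.7 (-1.03 ± 0.14), whose matrix entry is 26901 bases long.

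Chromatin regulators with long mRNAs were enriched in 20 of 30 cases and depleted in 0, with a median of 0.62, and in 27 with median-ratio scaling. Kdm6b, a histone H3 demethylase, was highest at 1.40, with 30.6 and 28.8 RPKM in the inputs and 78.7 and 82.0 in the captures. Arid1a, of the SWI/SNF remodeller, and Setd1b, a histone methyltransferase, each reached 1.36. Among the 10 not called, Kmt2c was at 0.01 (limma adjusted p = 0.039 with median-ratio scaling), Ncor1 at -0.03 and Ncoa1 at -0.22, so long chromatin mRNAs were not uniformly captured.

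Immediate early genes, which growth factor and stress signals switch on within minutes, had a median of 1.02. Of 20, 9 were enriched and 0 depleted, beside 16.0% and 36.9% of all 12176 genes. With the replicate block 15 were enriched. Jun, a subunit of AP-1, rose from 15.9 and 17.5 RPKM to 71.2 and 72.2 (2.04 ± 0.33, limma adjusted p = 0.000643). Jund rose from 76.9 and 62.4 to 296 and 275 (2.03 ± 0.25). Ier2, a short nuclear protein gene, followed at 1.85, Ier5 at 1.64 and Myc at 1.29. Fos was not called, at 0.41 with a standard error of 0.91, which pools its spread between replicates over the groups of all 12 libraries. With the replicate block its limma adjusted p was 0.0474.

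Among 12 Krüppel-like factors, 3 were enriched and 0 depleted, beside 16.0% and 36.9% of all 12176 genes. The list's median was 0.42. With the replicate block the enriched numbered 6 and with median-ratio scaling 7. Klf2, an endothelial and lymphocyte factor, rose from 88.5 and 83.3 RPKM to 209 and 207 (1.27 ± 0.37, limma adjusted p = 0.0162). Klf4 followed at 1.22 and Klf13 at 1.12. Klf9, a glucocorticoid-responsive factor that promotes adipocyte differentiation, stood at 25.1 and 26.1 RPKM in the inputs and 41.9 and 46.6 in the captures. Both captures were above both inputs, but its log2 enrichment of 0.77 ± 0.30 had a limma adjusted p of 0.056, against 0.000197 with the replicate block and 0.0216 with median-ratio scaling.

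Of 8 SOCS and CISH inhibitors, which switch off cytokine receptors, 3 were enriched and 0 depleted, beside 16.0% and 36.9% of all 12176 genes. The enriched genes were Socs6 (0.92), Socs5 (0.92) and Socs1 (0.72). The list's median was 0.70, and the replicate block gave 5 enriched. Clock genes had few calls and a median of -0.03. Of 18, 0 were enriched and 1 was depleted, beside those 16.0% and 36.9%, or 1 and 1 with median-ratio scaling. The depleted gene was Clock itself, the core circadian activator, which fell from 14.3 and 13.1 RPKM to 5.31 and 4.73 (-1.29 ± 0.16, limma adjusted p = 0.000118). The spread between replicates, pooled over the 6 groups of the fit, was wide for some clock genes. Per1 had 0.05 ± 0.84, with WT cold inputs of 4.49 and 28.7 RPKM. With the replicate block 4 clock genes were enriched and 3 depleted.

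Among the factors that make fat cells, Cebpa and Cebpb were enriched. Of 27 adipogenic and brown fat transcription factors, 8 were enriched and 4 depleted, beside 16.0% and 36.9% of all 12176 genes. Their median was 0.14. The counts were 9 and 1 with median-ratio scaling and 12 and 7 with the replicate block. Cebpa, which with Pparg sets the adipocyte program, rose from 143 and 168 RPKM to 405 and 493 (1.52 ± 0.18, limma adjusted p = 9.36e-05). Cebpb, which acts early in differentiation, rose from 72.3 and 76.9 to 193 and 274 (1.61 ± 0.26). Pparg, the master regulator, went the other way, from 63.3 and 69.5 RPKM to 36.7 and 42.5 (-0.73 ± 0.16, limma adjusted p = 0.00414, or 0.0704 with median-ratio scaling).

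Its partner Rxrg was depleted by -1.21, but Rxra of the same family, higher in both inputs, was not called (0.10, limma adjusted p = 0.64). Ebf1, an early B cell and adipocyte factor, was depleted by -0.42, but with median-ratio scaling it was at -0.10 and not called (limma adjusted p = 0.552). On the brown fat side the coactivator Ppargc1b was enriched by 1.45, Zfp516 by 1.13 and Prdm16, a determinant of brown and beige fat, by 1.05. Prdm16 stood at 3.69 and 4.63 RPKM in the inputs and 8.55 and 10.9 in the captures. For Ppargc1a, the coactivator of mitochondrial biogenesis, the log2 value was 0.04 ± 0.26, at 1.86 and 2.03 RPKM in the inputs and 1.92 and 2.12 in the captures, so its paralogue alone was called.

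Adipocyte markers and adipokines had a median of -0.39, near that of all genes. Of 23, 3 were enriched and 8 depleted, shares near the 16.0% and 36.9% of all 12176 genes. The counts were 5 and 14 with the replicate block and 4 and 5 with median-ratio scaling. Adipoq, which encodes the hormone adiponectin, rose from 566 and 523 RPKM to 862 and 898 (0.69 ± 0.13, limma adjusted p = 0.00121). Trarg1, which acts in GLUT4 trafficking, was enriched by 0.61. Rbp4, the retinol carrier, fell from 74.9 and 80.9 RPKM to 15.0 and 12.7 (-2.41 ± 0.23), and Adipor1, an adiponectin receptor, by -1.59.

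Leptin, the satiety hormone encoded by Lep, stood at 67.8 and 48.2 RPKM in the inputs and 64.3 and 44.9 in the captures. Within each pair it hardly differed, but its standard error of 1.27 gives a wide interval. That error pools the spread between replicates over all 6 groups of the fit, and the WT cold inputs of Lep stood at 76.1 and 5.72 RPKM. Fabp4, the fatty acid carrier of adipocytes, had -0.39 with a limma adjusted p of 0.0712, and Plin1, the main coat protein of the lipid droplet, -0.39 with 0.0522. With the replicate block both were depleted (limma adjusted p = 0.00271 and 0.00295), while with quantile scaling both signs reversed, to 1.03 and 0.26.

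Lipolysis, lipid droplet and uptake genes ran from -2.83 for Cd36 to 1.48 for Plin4. Of 20, 3 were enriched and 6 depleted, shares near those of all genes, or 12 depleted with the replicate block, and the median was -0.39, or 0.10 with quantile scaling. Plin4, a droplet coat protein with a long repeat-rich mRNA, rose from 272 and 267 RPKM to 754 and 757 (1.48 ± 0.29, limma adjusted p = 0.00183). Cd36, the fatty acid transporter, fell from 356 and 345 RPKM to 46.6 and 50.4 (-2.83 ± 0.12, limma adjusted p = 1.39e-06). Plin2, another droplet coat protein, fell from 114 and 155 to 35.5 and 53.0 (-1.59).

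Lpl, the lipase that frees fatty acids from lipoproteins, was depleted by -1.18, while Gpihbp1, which anchors it on capillary cells, was enriched by 0.80. Cavin1, which shapes caveolae, was enriched by 0.88. Lipogenesis genes leaned 1 way. Of 20, 0 were enriched and 15 depleted, beside 16.0% and 36.9% of all 12176 genes. The list's median was -1.16, and with median-ratio scaling 10 were depleted. Insig1, which holds back sterol regulators, was lowest at -1.78, followed by the elongase Elovl5 (-1.70) and Gpam (-1.53), the first enzyme of triglyceride synthesis. Scd1, a desaturase, fell from 4429 and 4739 RPKM to 2025 and 2096 (-1.15 ± 0.25).

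Thermogenic and beige markers had 16 of 24 genes at 1 RPKM or more in both inputs. Of these, 2 were enriched and 4 depleted, beside 16.0% and 36.9% of all 12176 genes. With median-ratio scaling 2 were depleted, and with the replicate block 6. Adrb1, a β-adrenergic receptor, was enriched by 1.07 and Kcnk3, a potassium channel of brown fat, by 0.84. Letmd1 (-1.62), Cpt1b (-1.11), Gk (-1.01) and Cox7a1 (-0.92) were depleted, of which Cpt1b and Cox7a1 were not called with median-ratio scaling (limma adjusted p = 0.0858 and 0.149). Ucp1, the uncoupling protein of brown fat, stood at 2.13 and 9.91 RPKM in the inputs and 1.07 and 4.76 in the captures. The replicates differed more than capture and input did, and its limma adjusted p was 0.587, against 0.000719 with the replicate block; Cidea, a droplet protein of brown and beige fat, had 0.107 and 0.012.

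In the insulin pathway, 3 of 19 genes were enriched and 9 depleted, beside 16.0% and 36.9% of all 12176 genes. The depleted numbered 3 with median-ratio scaling, and the enriched 5 with the replicate block. Irs1, the docking protein of the insulin receptor, was enriched by 1.18, the forkhead factor Foxo1 by 0.84 and the PI3-kinase subunit Pik3r1 by 0.84. Grb10, an adaptor that dampens the receptor, was depleted by -1.13 and Tsc2, a brake on mTOR, by -0.87.

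The translation and energy machinery formed the depleted pole. Of 77 cytosolic ribosomal protein genes, 71 were depleted and 2 enriched, beside 36.9% and 16.0% of all 12176 genes. The list's median was -1.76. With median-ratio scaling 68 were depleted. Summed over the list, RPKM fell from 25965 and 25521 in the inputs to 9146 and 8762 in the captures. Rpl41, which encodes the shortest ribosomal protein, was enriched, with 463 and 487 RPKM against 728 and 763 (0.65 ± 0.14). Ribosomal protein genes have many near-identical processed pseudogenes, and how the authors counted reads shared with them is not given in the sources used here.

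All 18 genes on the TCA cycle list were depleted by limma. Among them were Pcx, pyruvate carboxylase, at -0.55 and Idh1, a cytosolic enzyme, at -2.01. Lowest was Idh3a, a subunit of isocitrate dehydrogenase, which fell from 46.7 and 52.4 RPKM to 7.58 and 9.36 (-2.42 ± 0.15, limma adjusted p = 3.07e-06). With median-ratio scaling 15 of the 18 were depleted, without Pcx (limma adjusted p = 0.458). Among 25 fatty acid oxidation genes 22 were depleted and 0 enriched, with a median of -1.19. Hadhb, of the mitochondrial trifunctional protein, was lowest at -2.27. Cpt1a, Cpt2 and Ehhadh were not called, with -0.40, -0.19 and -0.28. With the replicate block 24 were depleted, Cpt1a and Ehhadh among them (limma adjusted p = 0.0147 and 0.0387).

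Respiratory chain subunits encoded in the nucleus followed. In complex I, 29 of 37 were depleted and 3 enriched, with a median that differed by -0.70 from that of all genes, and in complexes II to V 33 of 41 were depleted and 1 enriched (3 with the replicate block and 4 with median-ratio scaling), with a median of -1.14. The exceptions were not marginal. Ndufv3, a complex I subunit, rose from 29.8 and 30.9 RPKM to 61.7 and 61.3 (1.00 ± 0.14, limma adjusted p = 0.000283), while its neighbours in the same complex Ndufc1 and Ndufb5 were at -2.67 and -2.66. Ndufb10 (0.65), Ndufb7 (0.60) and Atp5k (0.89), a subunit of ATP synthase, were also enriched.

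The matrix holds 10 of the mRNAs encoded by mitochondrial DNA, which are made apart from the nuclear writer. Of these 10, 6 were depleted and 0 enriched, beside 36.9% and 16.0% of all 12176 genes. The mitochondrial mRNAs took 5.78% and 5.93% of input reads and 2.63% and 2.08% of capture reads. Their values were far from uniform, from -2.51 for mt-Nd6 and -2.50 for mt-Co1 to 0.22 for mt-Nd2 and 0.41 for mt-Nd3, which were not called; mt-Nd3 was enriched with the replicate block (limma adjusted p = 0.0241) and with median-ratio scaling (0.00592). mt-Co1, a core subunit of cytochrome c oxidase, fell from 15666 and 16292 RPKM to 2902 and 2742. With quantile scaling 2 of the 10 were enriched and 4 depleted.

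Of 20 constitutive housekeeping genes, 13 were depleted and 0 enriched, beside 36.9% and 16.0% of all 12176 genes. The list's median was -1.04. With the replicate block 17 were depleted and 2 enriched. Ppia, cyclophilin A, fell from 226 and 252 RPKM to 46.9 and 41.0 (-2.42 ± 0.12). Actb, β-actin, was depleted by -0.82, although quantile scaling gave 0.35, and Gapdh, the glycolytic enzyme, had -0.55 with a limma adjusted p of 0.0735, or 0.000166 with the replicate block. The list ran from -2.42 to 0.27.

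**Figure D4:**
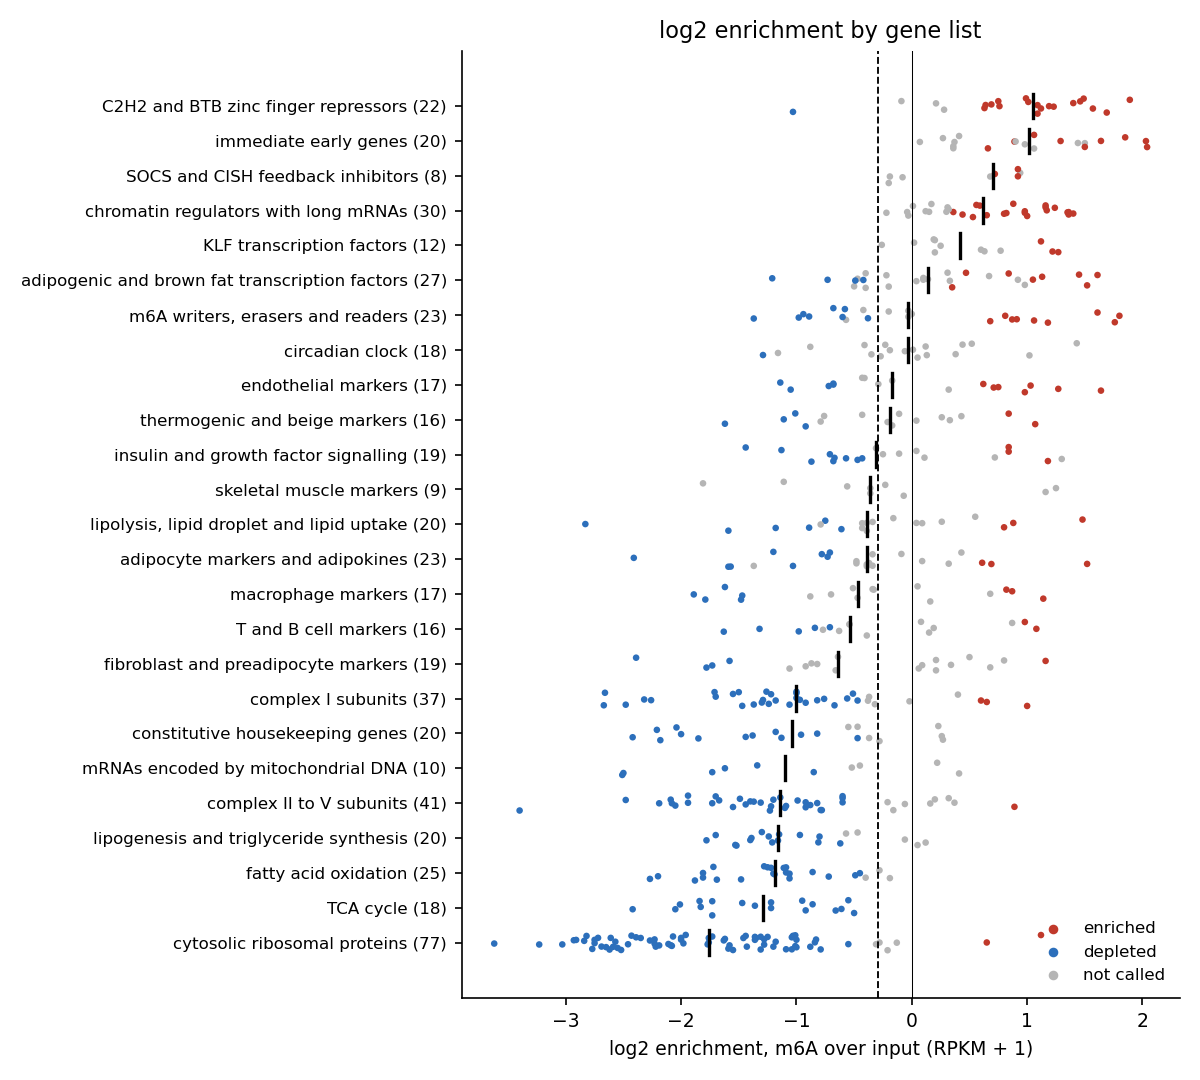
Log2 enrichment (horizontal) of the genes of 25 lists, 1 point a gene, red where enriched, blue where depleted and grey where not called, with the number of genes in brackets, a black bar at each list's median and a dashed line at the median of all 12176 genes (-0.30). Zinc finger repressors and immediate early genes lie to the right of it and ribosomal protein, TCA cycle and fatty acid oxidation genes to the left.

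Markers of the other cells in the tissue included genes on both sides. In macrophages Spi1, the lineage transcription factor, was enriched by 1.14, Fcgr1 by 0.87 and C1qa by 0.82. The mannose receptor Mrc1 (-1.89) and Adgre1 (-1.79), which encodes F4/80, were depleted. Of 17 markers 3 were enriched and 5 depleted, shares near those of all genes. The depleted numbered 10 with the replicate block and 3 with median-ratio scaling. Endothelial markers had 7 of 17 enriched and 5 depleted, beside 16.0% and 36.9% of all 12176 genes. With median-ratio scaling 2 were depleted. Erg, an endothelial transcription factor, rose from 9.34 and 8.98 RPKM to 27.9 and 33.9 (1.64 ± 0.21). Cldn5, of tight junctions, was enriched by 1.27 and Plvap by 1.03, while Emcn (-1.14) and Tek (-1.05) were depleted.

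Of 19 fibroblast and preadipocyte markers 1 was enriched and 4 depleted, beside 16.0% and 36.9% of all 12176 genes. The counts were 6 and 10 with the replicate block and 3 and 4 with median-ratio scaling. Dcn, the matrix proteoglycan decorin, fell from 278 and 270.1 RPKM to 53.7 and 49.2 (-2.39 ± 0.31, limma adjusted p = 0.000171), whereas Icam1, an adhesion molecule of committed preadipocytes, rose from 31.3 and 35.6 to 66.8 and 86.5 (1.16 ± 0.28). Of 16 T and B cell markers 2 were enriched, Cd2 (1.08) and Cd8b1 (0.98), and 5 depleted, led by Ms4a1, which encodes CD20 (-1.63). These shares were near those of all genes. With median-ratio scaling 3 were enriched and 3 depleted. Of the muscle markers 9 passed 1 RPKM in both inputs and 0 were called, beside those 16.0% and 36.9%. The replicate block gave 2 enriched and 3 depleted. The part of muscle RNA in any result of replicate 1 was not tested.

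Gene structure went with the calls, most steeply among genes with few introns. Genomic span over transcript length, from RefSeq and the matrix, is about 1 for a gene without introns and grows with intron content. The 120 genes under 0.8, whose RefSeq span is shorter than the length in the matrix, had 20.8% enriched, 43.3% depleted and a median of -0.44. Above them the enriched share fell from class to class. Of 252 genes at 0.8 to 1.1, 44.8% were enriched and 10.7% depleted, with a median of 0.62. At 1.5 to 2 the shares were 24.2% and 25.0%, and at 8 to 16, in 3244 genes, 13.1% and 43.5% with a median of -0.44. The order was the same with median-ratio scaling, where 56.0% and 20.6% were enriched at the first and last of these, and the WT cold libraries gave medians of 0.37 and -0.25.

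Jun, Ier2, Ier5, Cebpa and Cebpb, all described above, have a ratio of 1.0. The intron-poor class is not uniform: the histone gene H4c8 at 0.9 was among the lowest of all genes. Within it and the next class (0.8 to 1.5) the shortest quintile of transcripts had a median of -0.04 and the next 2 quintiles 0.75 and 0.61. In genes over 4, the same quintiles had -0.64, -0.42 and -0.36, so the difference held at matched length. Many highly captured genes are intron-rich all the same, such as Basp1 at 27.2.

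**Figure D5:**
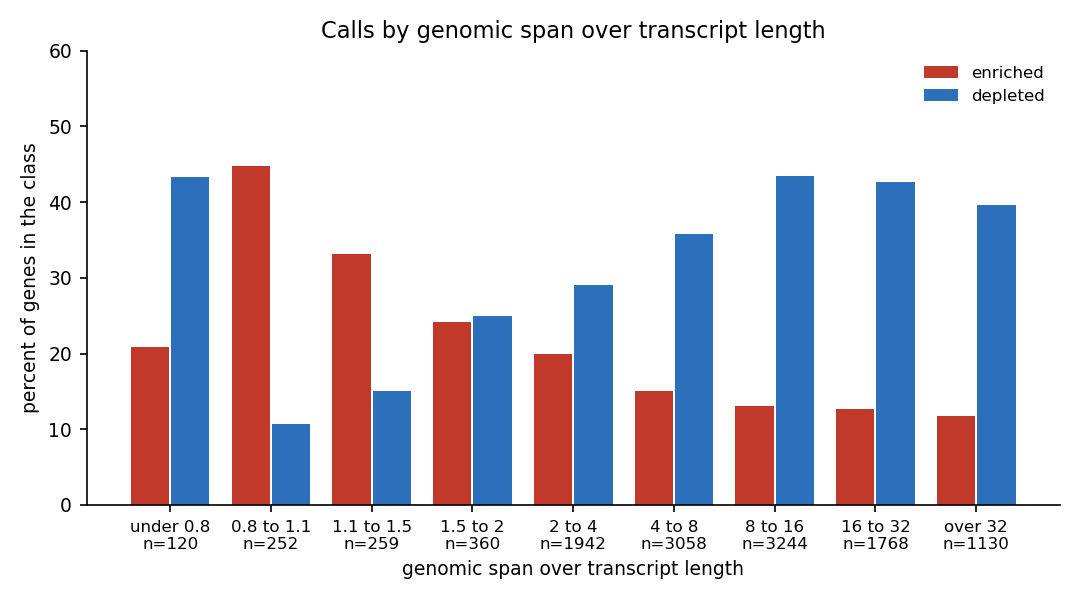
Percent of genes enriched (red) and depleted (blue) in 9 classes of genomic span over transcript length, with the number of genes under each class. Outside the class under 0.8 (20.8% and 43.3%), the enriched share falls from 44.8% at 0.8 to 1.1 to 11.8% over 32, and the depleted share rises from 10.7% to 43.5% at 8 to 16.

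Transcript length also went with the calls. Its quintiles hold more genes than the intron-poor span classes, so the slopes cannot be compared directly. From the span class 4 to 8 to that over 32 the enriched share moved only from 15.1% to 11.8%. From the shortest quintile of transcripts (median 1224 bases) to the longest (6471 bases) the enriched share went from 11.0% to 19.1%, the depleted share from 42.5% to 35.5% and the median from -0.51 to -0.17. By input level, which is also the denominator of the ratio, the depleted share went from 21.5% in the lowest quintile to 49.1% in the highest. The enriched share went from 13.3% to 15.7%. The 1 added to each RPKM limits how far a gene of low input can fall. Depleted calls are therefore harder to reach in the lowest quintile, where the median input was 2.50 RPKM. Spearman's rho of log2 enrichment across genes was 0.12 with length, -0.14 with mean input and -0.17 with span over length, all weak.

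Antibodies against m6A also bind m6Am, the related mark that mRNAs whose first base is A carry next to the cap. The first transcribed base was therefore read for the 7748 genes with 1 RefSeq start. By this annotated base the shares were close. Of the 2203 genes starting with A, 15.3% were enriched. The shares were 16.2% of 1183 with C, 15.1% of 3634 with G and 15.9% of 728 with T. Medians lay between -0.40 and -0.31. Whether the annotated start is the one used in this tissue was not tested. The windows (GRCm38.p6, RefSeq, 10 bases before the start and 20 from it) show genes that start with A on both sides, with that base in capitals: Basp1, Tnfaip8l2 and Nsrp1 are among the most enriched, and Ssr3, Eif4a2 and Zfp488 had log2 values of -3.01, -2.82 and -2.71.
Basp1: agcgatcgagAaatgcagaggctgcagcgg
Tnfaip8l2: gtgagctctcAgaaacatccaaggccagac
Nsrp1: gcgtctcgtcAcgtccgcgtcgaccaggtc
Ssr3: cccggcctccAgtcttcagctcggccatgg
Eif4a2: gaaaccccgtAggagcagggcggccgagga
Zfp488: cgcacgctgaAggacccgcagctggtacac

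Ribosomal protein mRNAs instead often begin with a C followed by a run of C and T, the terminal oligopyrimidine start that ties their translation to growth signals. Of 48 such genes with 1 RefSeq start, only 16 began with C by the annotation. In 10 the C was followed by at least 4 further pyrimidines, against 2.47% of 22862 promoters with 1 start. Capitals mark the run in 3 of them, which had log2 values of -2.75, -2.75 and -2.19.
Rps15a: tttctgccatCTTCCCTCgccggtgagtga
Rpl15: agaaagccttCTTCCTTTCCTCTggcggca
Rpl35: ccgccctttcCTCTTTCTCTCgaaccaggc
Over all genes with 1 RefSeq start, this annotated start went with little difference. The 187 genes with it had a median of -0.40 and 42.2% depleted, near the -0.32 and 38.1% of the 7561 other starts.

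The 1 RPKM threshold stands on the inputs alone, so it can remove a gene that is low in input and high in capture but not the reverse. Of the genes described, 404 were under 1 RPKM in both captures, and 292 genes below the threshold had at least 1 RPKM in both captures. Just inside were Rundc3b (1.16 and 1.00 RPKM), Myo5b and Slc16a12, and just outside Scn2b (0.998 and 1.33), Tmem273 and Dact2. Of the genes outside with the highest captures, Myh4, Tnnc2, Atp2a1 and Ckm were muscle genes high in replicate 1 and far lower in replicate 2, as with the fast myosin Myh4 at 58.1 and 0.157 RPKM in the inputs and Atp2a1, a calcium pump, at 36.8 and 0.544. Lmod1, a smooth muscle actin nucleator, differed from these with 0.817 and 1.68 RPKM in the inputs and 6.42 and 7.52 in both captures. Raising the threshold to 5 RPKM left 8830 genes, of which 16.7% were enriched and 41.7% depleted.

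WT mice in the cold gave an independent set of libraries in which to look at the same genes. Of the 1946 genes enriched at room temperature, 1889 (97.1%) had the same sign there and 1317 (67.7%) were enriched, and of the 4496 depleted, 4314 (96.0%) had the same sign and 3047 (67.8%) were depleted. Of the 5734 genes not called at room temperature, 4205 (73.3%) also had the same sign. In all genes tested 13.7% were enriched and 25.6% depleted in the cold. The 2 sets share the fit and its spread but no library. Prpf38b (3.30), Jun (2.03), Cebpa (1.43), Cd36 (-2.35) and Prdx1 (-3.65) kept their side, each called in the cold by limma.

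A test of the difference itself found few genes. By limma, 3 of the 12176 genes had higher enrichment in the cold and 1 lower, beside 0.0230% and 0.0383% of the 13062 tested, with 1486 tested genes at an unadjusted p under 0.05. Tmem38b, an ion channel of the endoplasmic reticulum, was lower, from 0.21 at room temperature to -4.28 in the cold. There its inputs stood at 93.7 and 217 RPKM and its captures at 6.61 and 6.14, against inputs of 9.06 and 11.6 and captures of 9.40 and 15.2 at room temperature. The lower count was 0 with a pseudocount of 0.1, without any 1 of the 4 room temperature libraries and without either WT cold m6A library. H2bc12 (a histone H2B gene), Plac8 and Dsc3 (a desmosomal cadherin) were depleted at room temperature by -2.66, -2.91 and -1.59 and stood at or near 0 in the cold inputs, at most 1.22 RPKM, so their cold ratios carry little. With the replicate block the counts were 222 and 39, beside 1.70% and 0.367% of all genes tested. Temperature and the series of library codes cannot be told apart in these labels. Summed markers of some cell types also differed between the room temperature and the cold inputs. The 16 T and B cell markers summed to 2.17 and 2.25 RPKM in the cold inputs, with Cd79a at 0 in both, against 1028 and 958 at room temperature. The 19 macrophage markers summed to 379.7 RPKM in cold input replicate 1, the lower of the cold inputs, against 2475 in room temperature input replicate 1, the lower of its pair. Their part in the differences was not tested.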

How the data were processed

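The deposited values are RPKM per gene, made by the authors from 16 libraries. HISAT2 and the build mm10 are named per the submitters' processing notes, and the counter and annotation are not given in the sources used here. Whole reads recovered from the RPKM steps (17664 of 17664 genes above 0 whole, tolerance 0.002 read plus 1e-07 of the reads) gave depth and transcript length.

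limma 3.58.1 (R 4.3.3; lmFit, eBayes with a trend, two-sided) was run on log2(RPKM + 1) over the 12 input and m6A libraries in 6 groups of 2 (6 residual degrees of freedom), for genes at 1 RPKM or more in at least 2 libraries, with Benjamini-Hochberg adjustment over all 13062 and a threshold of 0.05. The fit was also run on simulated data with equal, independent noise in every gene and library. These data differ from that, so the run gives no error rate for the calls here. limma voom on the recovered reads, an alternative added later, called 2240 genes enriched and 4607 depleted. Input and m6A deviations of equal replicate number correlated at 0.300, 0.648 and 0.477 in the 3 conditions (9192 genes), so the numbers were taken to pair libraries, from the data and not the labels. The block is an alternative; its values are printed where a call given in the text differs under it, or a list's count by over 1.5 times.

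Named genes are the 12 highest and 12 lowest called, up to 3 each way per list, a fixed set, the 10 most abundant, those at the threshold and those whose pairs differ most; other list members in the text were picked after their values were seen. The members and the 27 lists were chosen with earlier results of these data known. Replicate origin is not stated, and read intervals cover counting error only. RefSeq names matched 12136 members (99.7%). Malat1 and Neat1 are not analysed here.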

Additional observations from a re-analysis of the deposited data

Results flagged for a closer look

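Enrichment differed between WT cold and WT room temperature by the interaction test of limma in 4 of the 12176 genes, given as cold minus room temperature on the log2 scale. The difference was -4.49 ± 0.50 for Tmem38b (limma adjusted p = 0.0268), the one gene of the 4 that was well expressed in both conditions. Without any 1 of the 4 room temperature libraries, without either WT cold m6A library and with a pseudocount of 0.1, 0 genes were lower. It was 2.88 ± 0.38 for H2bc12 and 2.85 ± 0.35 for Plac8 (limma adjusted p = 0.0432 for each). For Dsc3, listed at 0 in all 4 WT cold libraries, it was 1.59 ± 0.22 (limma adjusted p = 0.0432). H2bc12 had 0 RPKM in both cold inputs, and Plac8 had 1.22 and 0.550.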

How the results depend on the processing

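The enriched count, 1946, became 2968 with median-ratio scaling, 3134 with quantile scaling, 2920 with the 4 WT room temperature libraries alone and 3147 with these and the replicate block; the depleted count, 4496, became 2977 with median-ratio scaling. Leaving out each room temperature library gave 1259 to 1363 enriched, the lowest without input replicate 2, and 3289 to 3488 depleted, where the lone library of a group is assumed to vary like the others. Under the other settings run on all members both counts stayed within 1.5 times, the replicate block over 12 libraries included (2590 and 5257). For cold minus room temperature the higher and lower counts, 3 and 1, became 222 and 39 with the replicate block, 0 and 0 with a pseudocount of 0.1 and 1 and 1 with median-ratio scaling, and 0 to 2 each without 1 library. Of 152 named genes, 138 were called. Signs reversed with median-ratio scaling for Wtap (0.29), Lep (0.23) and Naa38 (0.03); with quantile scaling for Wtap (0.12), Fabp4 (1.03), Plin1 (0.26), Actb (0.35), Gapdh (0.04), mt-Atp8 (0.17), mt-Co2 (0.32) and Cfd (0.07); scaled outside mitochondrial mRNAs, Lars2 and Gm20594, a setting added after seeing the data, for Wtap (0.12) and Lep (0.06); without 1 library for Wtap (-0.15 to 0.09), Ppargc1a (-0.01 to 0.09), Ucp1 (-1.66 to 0.14), Lep (-0.34 to 0.17), H4c1 (-1.23 to 0.18) and Naa38 (-0.60 to 0.05). Of these only Actb and Cfd had been called. The cause was not tested.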

Other observations

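Gene families that share the start of a symbol, grouped after values were seen, gave values beyond the lists. Of 82 families with at least 15 genes, Zbtb transcription factors had the highest median (0.75; 21 of 39 enriched and 4 depleted), and the coiled-coil proteins named Ccdc had 0.35 (19 of 69 enriched). Zfp genes, the largest such family, had a median of 0.11 with 86 of 315 enriched and 42 depleted. Of all 12176 genes, 16.0% were enriched and 36.9% depleted. Outside the ribosome the lowest medians belonged to the nucleoporins named Nup (-1.17; 15 of 19 depleted), the tetraspanins named Tspan (-1.08; 12 of 17 depleted), the C-type lectins named Clec (-1.07; 9 of 16 depleted) and the endosomal sorting proteins named Vps (-1.05; 24 of 34 depleted). Nup transcripts are long (median 4766 bases) and Rps transcripts short (945 bases), so the low families do not share a length. Peroxisome biogenesis genes named Pex had a median of -0.97 with 12 of 16 depleted, and autophagy genes named Atg -0.56 with 11 of 17 depleted and 0 enriched.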
